A study of Mus musculus with 23 samples.

Results

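The nuclear-encoded subunits of respiratory chain complexes II to V were examined in the hippocampus of 23 male C57BL/6J mice, all wild type and 6 weeks old when acquired. The 47 genes were taken by symbol from the 19733 genes of the deposited table: Sdha to Sdhd for complex II (4 genes), Uqcr genes and Cyc1 for complex III (9 genes), Cox4 to Cox8 genes for complex IV (17 genes) and Atp5 genes for complex V (17 genes). Pseudogenes and complex I were not included. Ctrl mice (n = 9) received the AIN93M control liquid diet and the vehicle CMC-Na by gavage. EtOH mice (n = 7) received the AIN93M ethanol liquid diet and the same vehicle, and EtOH-UA mice (n = 7) received the ethanol diet with urolithin A (UA), a gut microbial product of ellagic acid, at 200 mg/kg per day in CMC-Na. The diets lasted 16 weeks and were followed by 1 week of behavioural tests, so every mouse had also been handled and tested. No group received UA without ethanol. Each mouse gave 1 library, and expression was deposited as FPKM. This unit divides the fragments of a gene by the length of its transcript and by the mapped fragments of the library, but it does not show how many reads lie behind a value.

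Complex II (succinate dehydrogenase) passes electrons from succinate to ubiquinone, complex III passes them on to cytochrome c, and complex IV (cytochrome c oxidase) gives them to oxygen. Complexes III and IV pump protons, and complex V (ATP synthase) uses the returning protons to make ATP. Neurons depend on this supply of ATP for ion pumping and synaptic transmission, ethanol oxidation feeds reducing equivalents to the chain, and UA is known as an inducer of mitophagy. Complexes III, IV and V also hold subunits encoded by mitochondrial DNA. None of these was found in the deposited data under the symbols searched, so they could not be analysed.

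The transcripts of neurons, astrocytes, oligodendrocytes and microglia were present in every mouse, in keeping with brain tissue. The summed FPKM of all genes ranged from 327896 to 404609 per mouse, and 6 mice were above 350000: 3 Ctrl, 1 EtOH and 2 EtOH-UA. The sum is not a read depth. It is higher where more of the library lies in short transcripts, and these 6 mice had the 6 lowest slopes of expression on transcript length among the 23. Choroid plexus markers differed widely among mice and between groups. The summed FPKM of 10 of them had a median of 116.6 in Ctrl mice (lowest 41.6, highest 3371), whereas the EtOH group had a median of 1486 (lowest 132.8, highest 6628) and the EtOH-UA group had a median of 2124 (lowest 50.8, highest 8545). In tissue libraries of this kind, fewer cells of a type and less RNA per cell cannot be told apart.

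All 47 genes were detected in at least 17 of the 23 mice and all passed the filter of a mean of 0.1 FPKM. They fell into 2 sets. In 41 of them the mean was 10 FPKM or more, from 33.0 FPKM for Uqcrq to 578.9 FPKM for Atp5b. The other 6, all of complex IV, had means from 0.33 to 4.47 FPKM and are the tissue-restricted isoforms Cox6a2, Cox6b2, Cox7a1, Cox4i2, Cox8b and Cox7b2. Together the 47 transcripts made up 1.90% to 2.75% of the summed FPKM of a mouse.

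**Figure D1:**
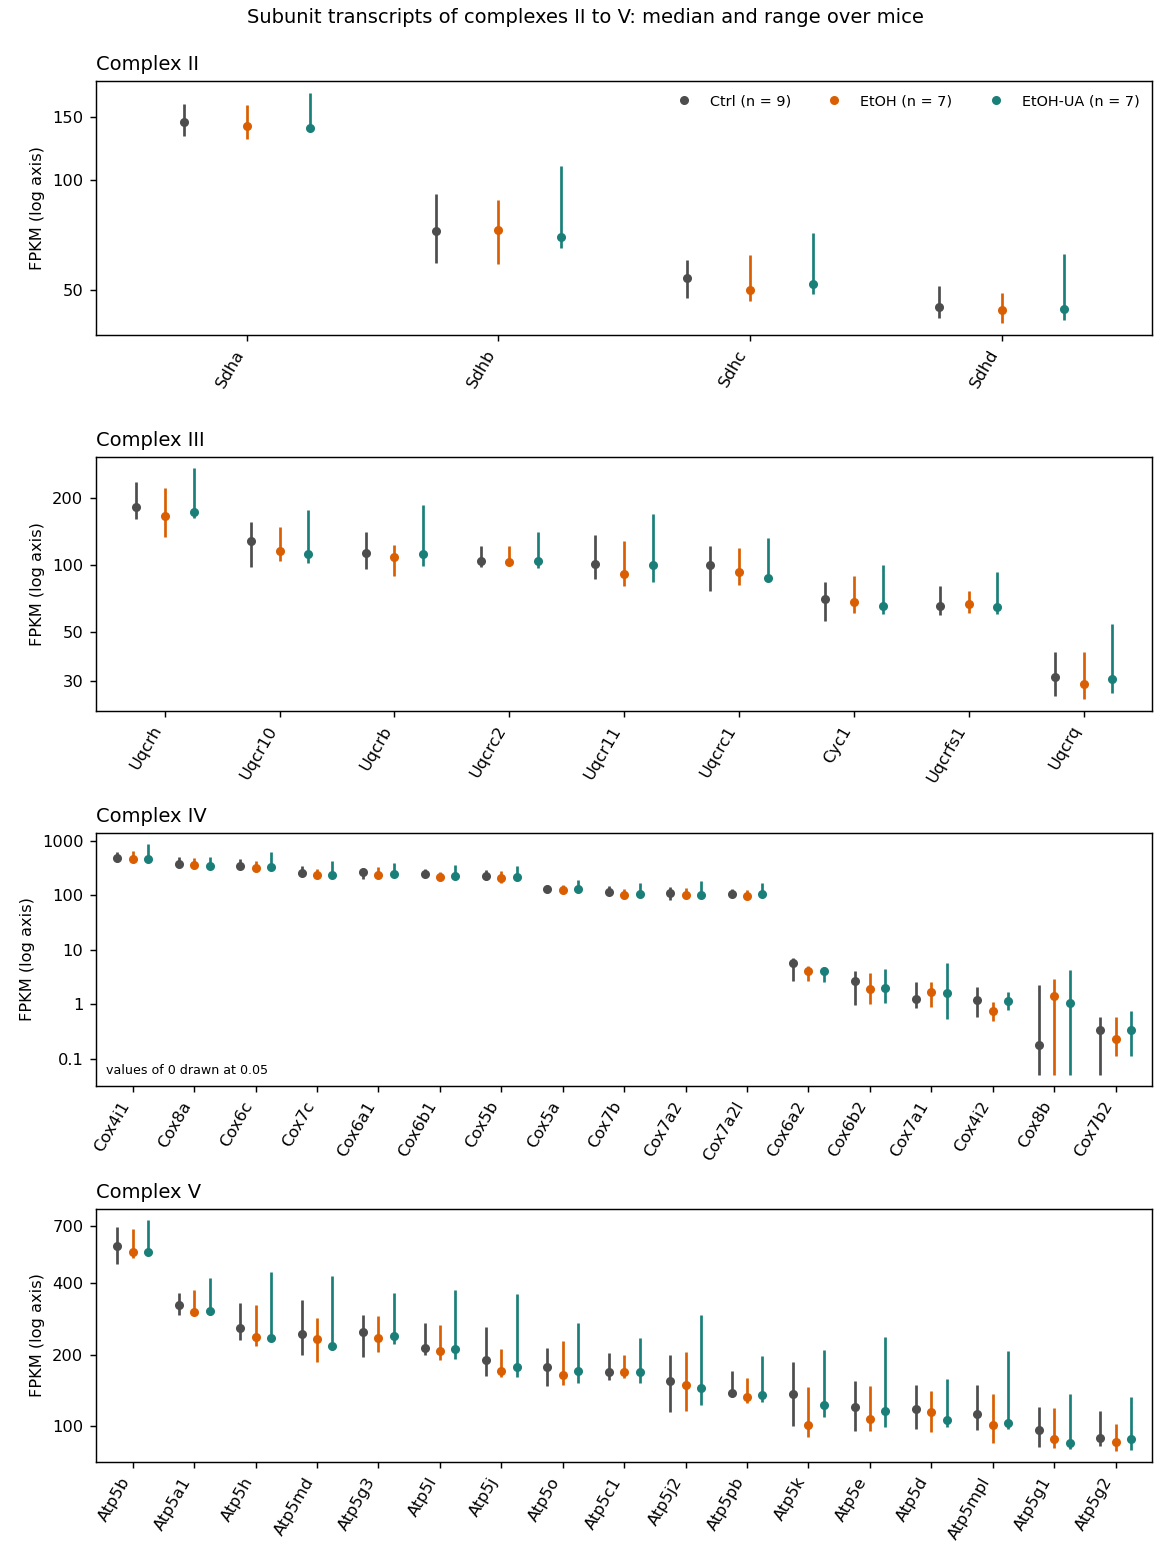
FPKM of each of the 47 subunit transcripts (log axis), by complex and from highest to lowest mean; dots are medians and lines run from the lowest to the highest mouse of the 9 Ctrl, 7 EtOH and 7 EtOH-UA mice. No 2 groups were separated for any transcript, and 6 complex IV isoforms sat under 10 FPKM.

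Complex II had the lowest summed FPKM, from 4 genes against 9, 17 and 17 genes in complexes III, IV and V. Its 4 transcripts summed to a mean of 323.3 ± 28.2 FPKM (SD, n = 9) in Ctrl mice, 308.8 ± 25.2 (n = 7) in EtOH mice and 332.8 ± 51.5 (n = 7) in EtOH-UA mice. Sdha, the flavoprotein that binds succinate, had the highest level, with 132.3, 145.3 and 162.9 FPKM as the lowest, median and highest Ctrl mouse. The corresponding values of Sdha were 130.4, 141.3 and 161.3 in EtOH mice and 137.2, 139.4 and 174.7 in EtOH-UA mice. The groups overlapped almost completely. Sdhb, the iron-sulfur subunit, averaged 76.4 FPKM, and the membrane anchors Sdhc and Sdhd averaged 53.5 and 46.1 FPKM over all mice. The ratio of Sdha to Sdhb had a median of 1.97 over the 23 mice and ranged from 1.60 to 2.23.

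In complex III, levels differed more between subunits than between groups. The hinge subunit Uqcrh was highest (mean 186.0 FPKM) and the small subunit Uqcrq was lowest (33.0 FPKM). The catalytic subunits lay between them, with Cyc1 (cytochrome c1) at 71.1 FPKM and the Rieske protein Uqcrfs1 at 68.7 FPKM. The core proteins Uqcrc1 and Uqcrc2 averaged 98.2 and 109.3 FPKM.

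In complex IV, Cox4i1, the ubiquitous form of the largest nuclear-encoded subunit, was highest, with 415.2, 493.4 and 632.3 FPKM in the lowest, median and highest Ctrl mouse. The values of Cox4i1 were 436.8, 469.1 and 652.4 in EtOH mice and 422.5, 474.1 and 871.9 in EtOH-UA mice. The highest EtOH-UA mouse lay above all others, whereas the medians of the 3 groups differed by less than the range of any group. The other complex IV members of 10 FPKM or more had means from 108.6 FPKM (Cox7a2l, a relative of Cox7a2) to 388.9 FPKM (Cox8a).

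In complex V, the beta subunit Atp5b, which carries the catalytic sites of the F1 head, was the most abundant of all 47 transcripts. Its lowest, median and highest values were 485.2, 574.5 and 691.0 FPKM in Ctrl mice. They were 509.8, 545.1 and 682.1 in EtOH mice and 525.4, 545.5 and 740.6 in EtOH-UA mice. The groups overlapped over most of their ranges. The alpha subunit Atp5a1, which alternates with beta in equal number in the head, averaged 326.5 FPKM. The ratio of Atp5b to Atp5a1 lay between 1.64 and 1.90 in all 23 mice (median 1.78). The level of Atp5b itself differed 1.53-fold between the lowest and the highest mouse. The gamma subunit Atp5c1, present as a single copy in the rotor, averaged 177.9 FPKM, and the median ratio of Atp5b to Atp5c1 was 3.29 (range 2.93 to 3.50). These are ratios of transcript levels and do not measure the ratio of the subunits as proteins.

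Several subunits have more than 1 gene. The c ring of ATP synthase is encoded by Atp5g1, Atp5g2 and Atp5g3, whose mature proteins are identical. How reads shared with pseudogenes or near-identical copies were assigned is not recorded, so the levels of such genes are uncertain. Atp5g3 gave 53.1% to 60.7% of their summed FPKM (median 56.8%), Atp5g1 gave 20.2% to 23.6% and Atp5g2 gave 18.8% to 24.2%. Cox7a2 and Cox7a2l had near equal levels, with median shares of 51.2% and 48.1% of the family. The restricted isoform of a family never exceeded 2.36% of it, the value of Cox6a2 in 1 Ctrl mouse.

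Promoter sequences were looked up for the binding motifs of NRF1, GABP (an ETS factor) and YY1, which are known to bind genes of the respiratory chain. RefSeq windows of GRCm38.p6, from 250 bases before to 50 bases after a start, were given for 36 of the 47 genes (39 windows). The motif of NRF1 (GCGCNTGCG, either strand) was found in 15 of the 35 windows of genes of 10 FPKM or more (42.9%), against 6.31% of all 32851 windows and 10.99% of the 16160 windows of genes tested. The ETS motif (CCGGAAG, either strand) was found in 13 of the 35 (37.1%), against 8.86% of all windows and 14.5% of those of genes tested. The YY1 motif (AAGATGGC, either strand) was found in 3 of the 35 (8.57%), against 2.75% and 3.71%. The 4 windows of restricted isoforms (Cox6b2, Cox7a1, Cox7b2 and Cox8b) held none of the 3 motifs. No 2 different motifs overlapped in these 39 windows. The abundant genes had a median of 19 CpG pairs in their windows and the 4 restricted isoforms had 2 to 10, beside medians of 18 for genes tested and 7 for all windows. The windows below are shown to compare genes that hold a motif (Sdha and Uqcrc1 for NRF1, Cox8a for ETS, Atp5pb for YY1) with the most abundant gene, Atp5b, and with Cox8b, the restricted counterpart of Cox8a. Capitals mark motif matches, and each window is written 5′ to 3′ on the strand of the gene. In Uqcrc1, the last 2 of the 3 NRF1 matches overlap and read the motif on both strands.
Sdha, chr13:74350191-74350490, minus strand: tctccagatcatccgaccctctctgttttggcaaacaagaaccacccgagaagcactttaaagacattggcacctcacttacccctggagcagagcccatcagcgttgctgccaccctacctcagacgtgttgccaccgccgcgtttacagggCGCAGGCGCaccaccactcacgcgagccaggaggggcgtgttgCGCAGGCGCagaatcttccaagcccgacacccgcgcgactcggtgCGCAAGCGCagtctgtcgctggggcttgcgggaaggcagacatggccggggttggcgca
Uqcrc1, chr9:108936398-108936697, plus strand: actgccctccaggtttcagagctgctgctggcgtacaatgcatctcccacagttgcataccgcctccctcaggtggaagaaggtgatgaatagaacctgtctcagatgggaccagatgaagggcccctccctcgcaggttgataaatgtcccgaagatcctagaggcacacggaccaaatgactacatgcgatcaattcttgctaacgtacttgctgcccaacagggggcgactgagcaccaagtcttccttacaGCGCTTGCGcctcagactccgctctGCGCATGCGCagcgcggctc
Cox8a, chr19:7217567-7217866, minus strand: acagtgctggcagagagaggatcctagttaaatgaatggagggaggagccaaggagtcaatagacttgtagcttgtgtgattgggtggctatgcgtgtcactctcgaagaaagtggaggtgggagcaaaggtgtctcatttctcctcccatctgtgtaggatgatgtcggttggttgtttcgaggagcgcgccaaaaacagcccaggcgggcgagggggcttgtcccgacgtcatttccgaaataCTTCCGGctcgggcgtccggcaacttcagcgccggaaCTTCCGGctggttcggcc
Cox8b, chr7:140900397-140900696, minus strand: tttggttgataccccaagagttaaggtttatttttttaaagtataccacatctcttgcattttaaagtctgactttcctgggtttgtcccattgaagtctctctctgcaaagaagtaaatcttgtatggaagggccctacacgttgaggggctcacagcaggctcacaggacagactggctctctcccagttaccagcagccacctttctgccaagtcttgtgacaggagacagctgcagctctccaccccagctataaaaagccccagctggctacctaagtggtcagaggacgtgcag
Atp5b, chr10:128083057-128083356, plus strand: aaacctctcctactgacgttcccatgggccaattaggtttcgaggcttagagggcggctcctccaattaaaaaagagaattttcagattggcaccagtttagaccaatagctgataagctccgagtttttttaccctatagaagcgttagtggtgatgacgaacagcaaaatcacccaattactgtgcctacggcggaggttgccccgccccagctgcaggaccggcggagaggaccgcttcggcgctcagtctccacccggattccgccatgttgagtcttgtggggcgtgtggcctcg
Atp5pb, chr3:105959214-105959513, minus strand: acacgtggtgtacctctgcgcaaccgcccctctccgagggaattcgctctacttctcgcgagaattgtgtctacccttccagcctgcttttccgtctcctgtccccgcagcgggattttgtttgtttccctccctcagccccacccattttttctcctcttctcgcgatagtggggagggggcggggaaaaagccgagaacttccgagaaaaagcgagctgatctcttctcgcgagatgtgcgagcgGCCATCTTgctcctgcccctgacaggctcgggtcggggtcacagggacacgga
Atp5b, the member with the highest level, held none of the 3 motifs in this window. Cox8b held 2 CpG pairs against 19 in Cox8a. Whether motifs go with level was not tested. A motif match is only a description of the letters in the window.

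To investigate the effect of ethanol on the chain, EtOH mice were compared with Ctrl mice. The subunit transcripts were slightly lower in the EtOH group, and none passed the test. Of the 47 members, 44 had a lower mean log2 level in EtOH mice, and the median log2 fold change was -0.10. In the whole table, 48.6% of the 15986 genes tested were higher in EtOH mice, with a median of -0.003. No member passed an adjusted p of 0.05 (limma, Benjamini-Hochberg adjustment over all genes tested), against 0.0% of all genes. At an unadjusted p under 0.05 there were 2 members, Cox8b (higher) and Cox4i2 (lower), that is 1 of 47 in each direction, against 1.95% of all genes higher and 1.1% lower.

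All 41 abundant members were lower in EtOH mice. Their log2 fold changes ran from -0.24 (Atp5k, subunit e of the ATP synthase membrane part) to -0.03 (Uqcrc2). The medians of the complexes, restricted isoforms left out, were -0.08 for complex II, -0.11 for complex III, -0.14 for complex IV and -0.09 for complex V. Sdha had a log2 fold change of -0.05 (SE 0.06), Cox4i1 of -0.08 (SE 0.14) and Atp5b of -0.06 (SE 0.09), each smaller than its standard error. Among abundant members the smallest p belonged to Cox7b, a small structural subunit of complex IV. Cox7b had lowest, median and highest values of 106.1, 116.1 and 145.7 FPKM in Ctrl mice and 99.3, 101.1 and 132.2 FPKM in EtOH mice, and 6 of 7 EtOH mice were below the Ctrl median. Its log2 fold change was -0.17 (SE 0.10, exact two-sided permutation p = 0.0621, adjusted p = 0.999 by limma).

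To investigate the effect of UA on ethanol-fed mice, EtOH-UA mice were compared with EtOH mice. Here 44 of 47 members were higher in the EtOH-UA group, with a median log2 fold change of 0.15, and again none passed the test. Of all genes tested, 51.2% were higher, with a median of 0.003. No member passed an adjusted p of 0.05 (limma), as 0.0% of all genes did. Cox4i2 alone had an unadjusted p under 0.05 and was higher (1 of 47 members, against 1.83% of all genes), and no member was lower at that level (against 1.45%).

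All 41 abundant members were higher in EtOH-UA mice, with log2 fold changes from 0.04 (Uqcrc1 and Cox8a) to 0.31 (Atp5k). The medians were 0.12 for complex II, 0.10 for complex III, 0.17 for complex IV and 0.15 for complex V. Sdha had a log2 fold change of 0.06 (SE 0.07), Cox4i1 of 0.17 (SE 0.15) and Atp5b of 0.08 (SE 0.09). Atp5k had lowest, median and highest values of 90.3, 101.6 and 146.6 FPKM in EtOH mice and 109.2, 123.0 and 208.9 FPKM in EtOH-UA mice. All 7 EtOH-UA mice were above the EtOH median of Atp5k, though the ranges overlapped (log2 fold change 0.31, SE 0.16, exact two-sided permutation p = 0.122). Atp5j, the coupling factor F6 of the stator stalk, had values of 161.4, 170.3 and 212.7 FPKM in EtOH mice and 162.1, 178.0 and 360.4 FPKM in EtOH-UA mice. The difference for Atp5j was 0.28 on the log2 scale (SE 0.15, exact permutation p = 0.138). The EtOH and EtOH-UA comparisons share the EtOH mice, so a lower value in those mice enters both with opposite signs.

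To compare ethanol with UA against no ethanol, EtOH-UA mice were set beside Ctrl mice. Of the 47 members, 37 had a higher mean log2 level in the EtOH-UA group, with a median log2 fold change of 0.04, against 51.2% of all genes and a median of 0.002. No member had an unadjusted p under 0.05 in either direction, against 1.56% of all genes higher and 1.52% lower, and none passed the adjusted p (0.0% of all genes). The direction turned with a single library: without the EtOH-UA mouse at 404609, 3 of 47 were higher and the median was -0.04, and without the one at 379518, 12 were higher and the median was -0.02. The smallest p was that of Cox6a2, which is described with the restricted isoforms. Cox8a, the smallest subunit of complex IV, was the abundant member furthest below the Ctrl mice, with a log2 fold change of -0.10 (SE 0.11, exact permutation p = 0.456). Atp5e, the epsilon subunit of F1, was furthest above, with 0.13 (SE 0.16, exact permutation p = 0.497). Uqcrb of complex III had 0.09 (SE 0.11, exact permutation p = 0.548), and Atp5d, the delta subunit of F1, had -0.04 (SE 0.11, exact permutation p = 0.735).

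**Figure D2:**
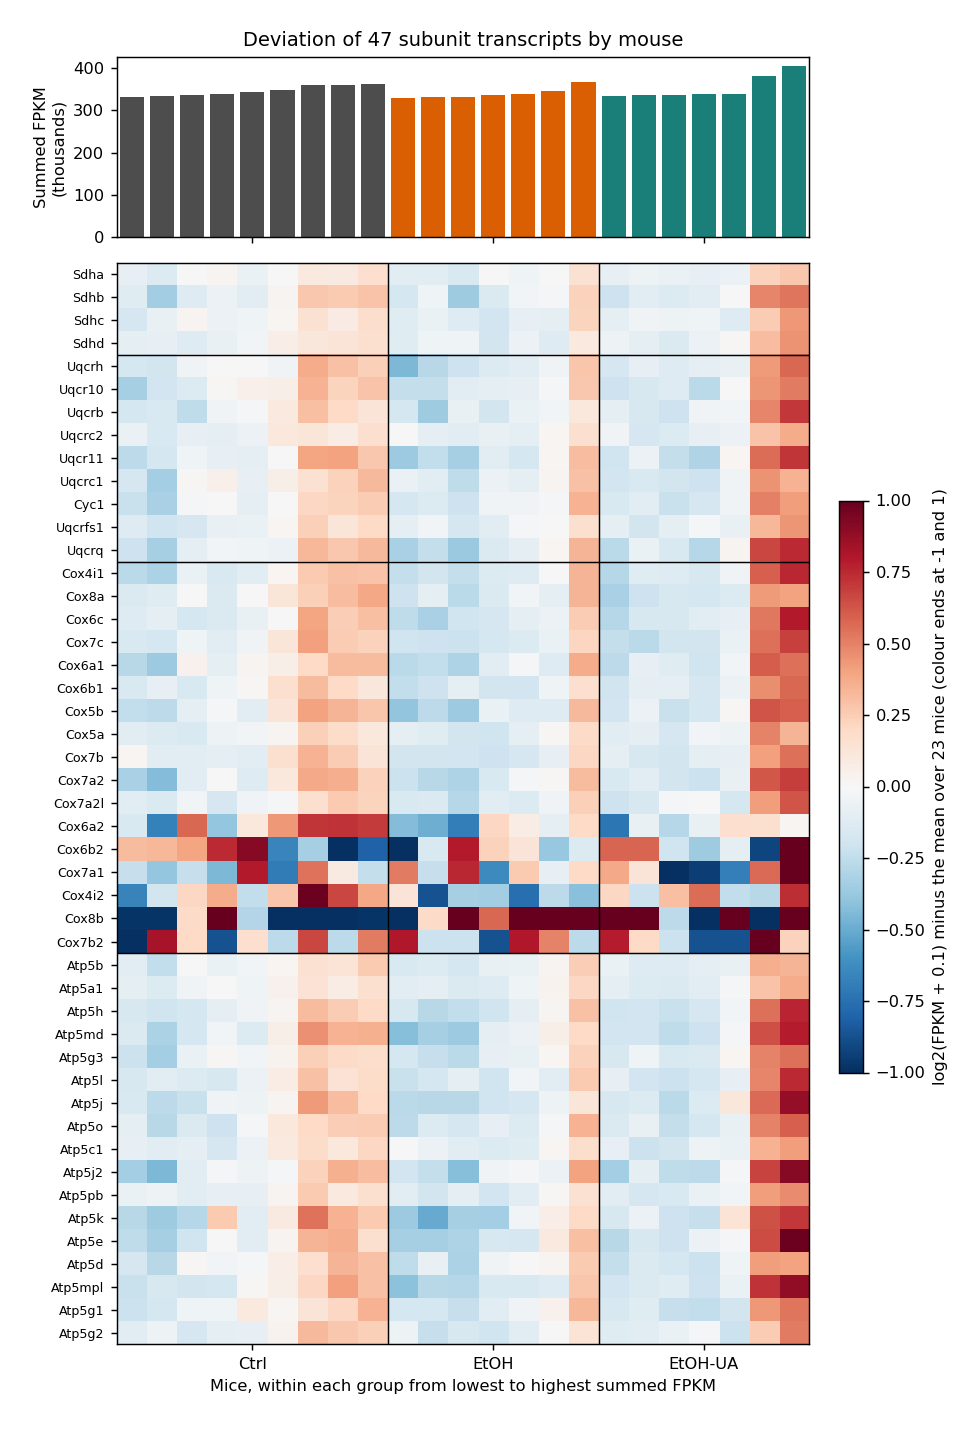
Each cell shows log2(FPKM + 0.1) of 1 of the 47 members (rows, by complex) in 1 of the 23 mice (columns) minus the mean over all mice, and bars show the summed FPKM of all genes per mouse. The 41 abundant members were highest together in the mice with the highest summed FPKM of each group, whereas the 6 restricted isoforms of complex IV followed other patterns.

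The abundant members varied together from mouse to mouse. After group means were removed, the correlation of each with the mean of the other abundant members over 23 mice had a median of 0.961 and ranged from 0.903 (Atp5g2) to 0.990 (Cox4i1). The points share the library, so a property of a library moves all of them. The 6 restricted isoforms ranged from -0.27 (Cox6b2) to 0.61 (Cox6a2).

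This joint variation went with the summed FPKM. The mean deviation of the 47 members from their averages, on the log2 scale, was 0.16 to 0.66 in the 6 mice above 350000 and -0.23 to 0.01 in the other 17, so that the 6 highest scores were those of the 6 mice. The EtOH-UA mice at 404609 and 379518 had scores of 0.66 and 0.38. The other 5 EtOH-UA mice had scores from -0.21 to -0.04 and lay within the range of the EtOH mice (-0.23 to 0.26). The 6 mice also held the 6 highest scores of cytosolic ribosomal protein genes.

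**Figure D3:**
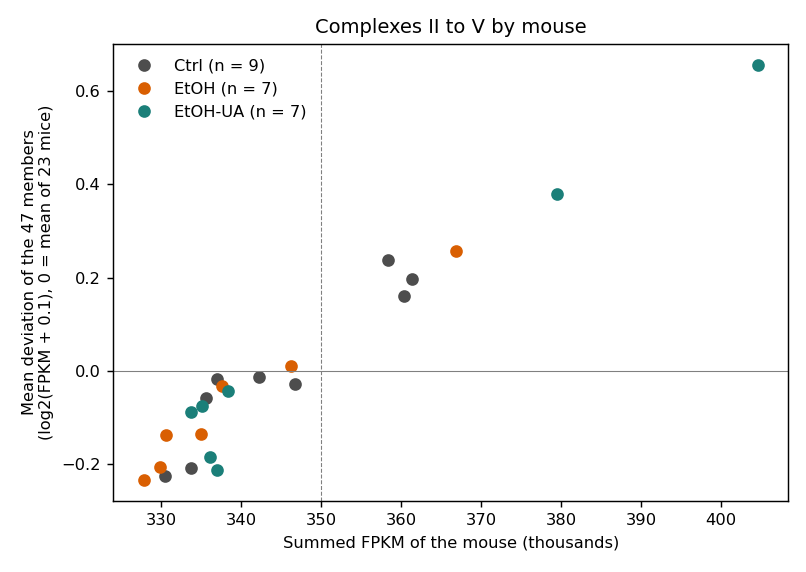
Mean deviation of the 47 members (log2 scale, 0 is the mean of 23 mice) against the summed FPKM of all genes per mouse, with a dashed line at 350000. The 6 mice to the right of the line, 3 Ctrl, 1 EtOH and 2 EtOH-UA, had scores of 0.16 to 0.66, and the other 17 had scores of 0.01 or less.

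Without the 2 EtOH-UA mice of highest summed FPKM, 35 of the 41 abundant members had lower values with UA than with ethanol alone, with a median of -0.04 (-0.05 for complex III, -0.04 for complex IV, -0.05 for complex V and -0.02 for complex II). Against Ctrl mice, all 41 were then lower, with a median of -0.16. Without all 6 mice above 350000, 37 of 41 were lower with ethanol than without (median -0.05). With UA, 24 of 41 were higher than in the EtOH group (median 0.02) and 35 of 41 were lower than in the Ctrl group (median -0.03). With the slope of expression on transcript length as a covariate, the corresponding medians were -0.03, -0.003 and -0.03. Leaving out the 2 EtOH-UA mice thus turned the direction of their comparison with both other groups. These sets of mice were chosen after seeing the data.

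The size of the difference also followed transcript length. Among the 25 abundant members with transcripts under 1000 bases, the median log2 fold change was -0.13 for EtOH against Ctrl mice and 0.17 for EtOH-UA against EtOH mice. In the 16 with longer transcripts the medians were -0.07 and 0.08. Across the 41 members, the Pearson correlation of the fold change with log2 length was 0.69 in the first comparison and -0.66 in the second (Spearman 0.71 and -0.64), and that of the spread within groups was -0.69. The points share their libraries and are not independent. The highest mouse exceeded the lowest by a median of 2.03-fold for the short transcripts and 1.57-fold for the longer ones. Sdha, with a transcript of 2900 bases, had the smallest such ratio (1.34), and Atp5j2, subunit f, the largest (2.57).

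**Figure D4:**
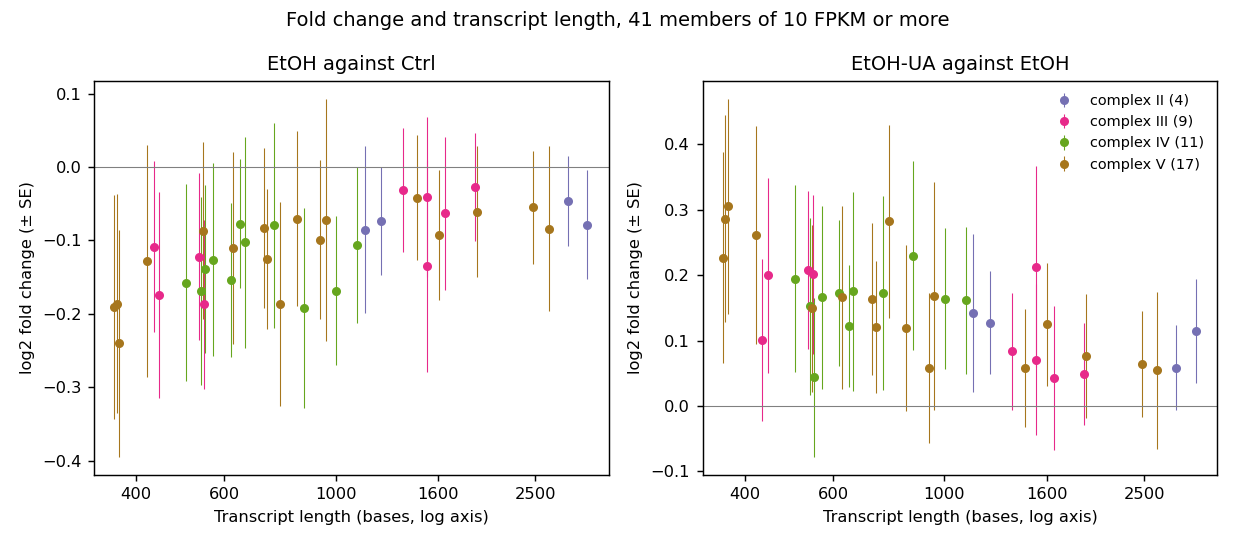
log2 fold change with its standard error against transcript length (log axis) for the 41 members of 10 FPKM or more, coloured by complex, in EtOH against Ctrl mice (left) and EtOH-UA against EtOH mice (right). Members with transcripts under 1000 bases had medians of -0.13 and 0.17, and those with longer transcripts had -0.07 and 0.08.

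Other genes of energy metabolism had similar values. Of 36 subunits of complex I, all 36 had lower values in the EtOH group than in the Ctrl group (median -0.12) and all 36 had higher values with UA than without it (median 0.18), and none passed the adjusted test. The 8 carriers of electrons and nucleotides, such as cytochrome c (Cycs) and the adenine nucleotide translocators, had medians of -0.07 and 0.10, and the 13 enzymes of the citric acid cycle -0.05 and 0.09. The 36 assembly factors of complexes II to V had medians of -0.08 and 0.08, with 27 of 36 lower in the first comparison and 30 of 36 higher in the second. Genes outside the mitochondria had medians of the same signs: all 83 cytosolic ribosomal protein genes tested were lower and then higher (medians -0.11 and 0.18), and of 39 proteasome subunits 35 were lower and 36 were higher (medians -0.07 and 0.11). The 12 regulators of mitochondrial genes, such as Ppargc1a, Nrf1, Gabpa and Tfam, had medians of 0.001 and 0.02, with 6 of 12 lower and 7 of 12 higher. Their transcripts were all longer than 1000 bases, from 1402 bases for Tfb1m to 8509 bases for Gabpb2. The part of transcript length in their smaller medians was not tested. Ppargc1a, the coactivator of mitochondrial biogenesis, had log2 fold changes of 0.05 and -0.22 (limma, adjusted p = 0.999 and 0.90). None of these lists held a gene that passed the adjusted test in any comparison.

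**Figure D5:**
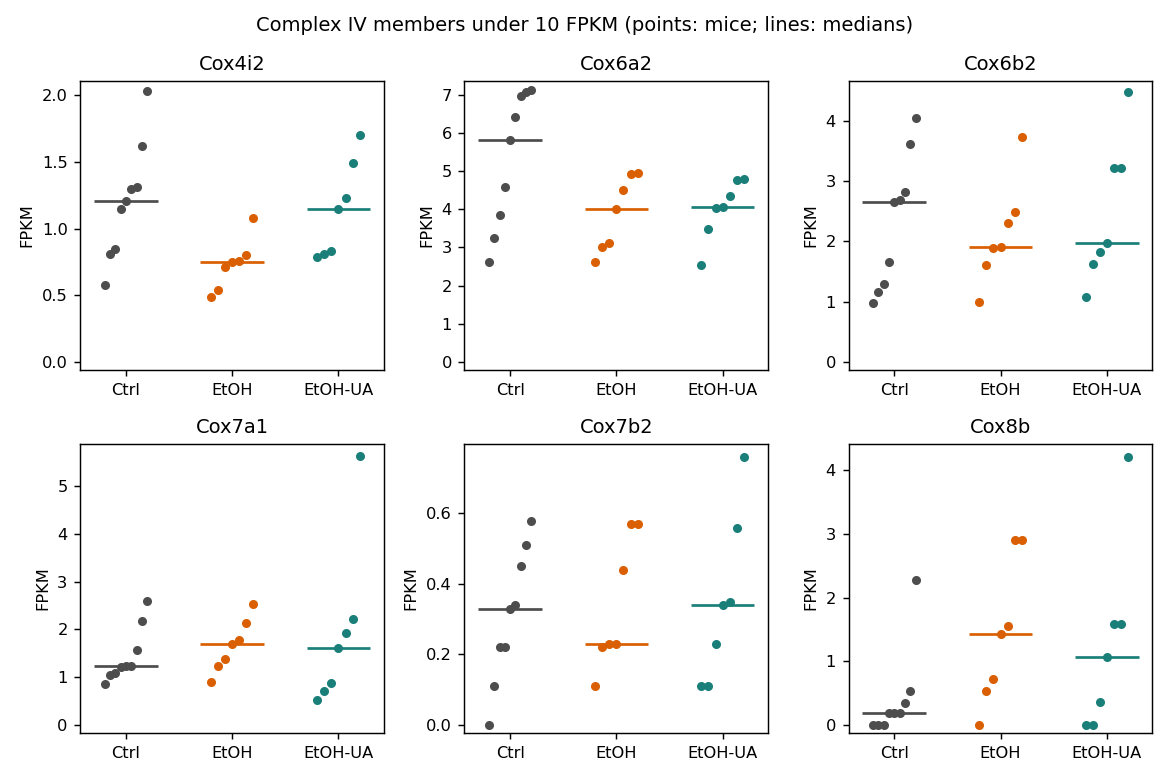
FPKM of the 6 complex IV isoforms under 10 FPKM in each of the 23 mice, with a line at the median of each group. Cox4i2 in EtOH mice ran from 0.49 to 1.08 against 0.58 to 2.03 in Ctrl mice and 0.79 to 1.70 in EtOH-UA mice, and Cox8b was listed at 0 in 3 Ctrl, 1 EtOH and 2 EtOH-UA mice.

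The smallest p-value of each comparison belonged to a restricted isoform of complex IV. Cox4i2, a form of subunit 4 that is induced by low oxygen and in brain is found mainly in pericytes, had lowest, median and highest values of 0.58, 1.21 and 2.03 FPKM in Ctrl mice. The values were 0.49, 0.75 and 1.08 in EtOH mice and 0.79, 1.15 and 1.70 in EtOH-UA mice. All 7 EtOH mice were below the Ctrl median and all 7 EtOH-UA mice were above the EtOH median, though the ranges overlapped. The log2 fold change on log2(FPKM + 0.1) was -0.61 (SE 0.21) for EtOH against Ctrl mice, with an exact two-sided permutation p = 0.0177 and an adjusted p = 0.999 by limma. It was 0.56 (SE 0.22) for EtOH-UA against EtOH mice, with an exact permutation p = 0.0134 and an adjusted p = 0.90 by limma. EtOH-UA and Ctrl mice differed by -0.05 (SE 0.21).

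Cox4i2 was named for the smallest p among the members in both comparisons. The 34 alternatives of each comparison are refits of the same mice, 23 of them with 1 mouse left out, and not independent repeats. Those that change only the filter or the groups in the fit leave the log2 fold change of Cox4i2 as it was. So do those that leave out only mice of the group not compared. These are 9 fits without a Ctrl mouse for EtOH-UA against EtOH mice. For EtOH against Ctrl mice they are 7 fits without an EtOH-UA mouse and the fit without 2. Their direction could not differ from that of the main fit. Cox4i2 kept its direction in all 34 alternatives of both comparisons, these included. Its unadjusted limma p was under 0.05 in all 34 for EtOH-UA against EtOH mice and in 32 of 34 for EtOH against Ctrl mice. Of the 2 exceptions, the fit without the 6 mice of highest summed FPKM gave a log2 fold change of -0.37 (unadjusted p = 0.0858 in the limma model, not a permutation test). The other was the fit on the 14 mice with 100 FPKM or more of Ttr, the transthyretin gene of the choroid plexus, which gave -0.39 (unadjusted p = 0.0977 in the limma model, not a permutation test). In these 14 mice the difference between EtOH-UA and EtOH mice was 0.47 (unadjusted p = 0.0488 in the limma model, not a permutation test). Pooled over groups, Cox4i2 had a median of 1.23 FPKM in the 9 mice under 100 FPKM of Ttr and 0.82 FPKM in the 14. Of these, 1 of the 9 and 6 of the 14 were EtOH mice, so the pooled split also differs in group. Among the mice with 100 FPKM of Ttr or more, its medians were 1.0 FPKM in 4 Ctrl, 0.76 FPKM in 6 EtOH and 0.99 FPKM in 4 EtOH-UA mice. Under 100 FPKM of Ttr, they were 1.31 FPKM in 5 Ctrl and 1.23 FPKM in 3 EtOH-UA mice. The 1 EtOH mouse there went the other way, with 0.54 FPKM. The share of Cox4i2 in the sum of Cox4i1 and Cox4i2 had medians of 0.231% without ethanol, 0.155% with it and 0.195% with ethanol and UA. The summed FPKM of 8 pericyte and smooth muscle markers, none of them at 0, was 42.1 to 55.0 in Ctrl, 38.6 to 49.5 in EtOH and 40.9 to 55.0 in EtOH-UA mice, with medians of 47.3, 45.4 and 45.0. Among them the pericyte gene Higd1b had medians of 3.64, 2.58 and 3.34 FPKM in the same order, while Rgs5 had 25.9, 26.3 and 25.6 FPKM. The part of these cells in the difference of Cox4i2 was not tested.

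Cox8b, the form of subunit 8 known from heart, skeletal muscle and brown fat, had lowest, median and highest values of 0, 0.18 and 2.28 FPKM in Ctrl mice, 0, 1.43 and 2.90 in EtOH mice and 0, 1.07 and 4.21 in EtOH-UA mice. It was listed at 0 in 3 of 9 Ctrl, 1 of 7 EtOH and 2 of 7 EtOH-UA mice. Of its 17 values above 0, 14 lay within 0.02 FPKM of a multiple of 0.175 FPKM. This step was fitted to the same 17 values, over a range in which 0.18 FPKM always counts as 1 step. It also takes depth as alike in all mice, which is unknown. If a step were 1 fragment, the lowest nonzero value would be 1 fragment and the highest about 24, which was not tested. The log2 fold change was 1.82 (SE 0.81) for EtOH against Ctrl mice, with an exact permutation p = 0.0418 and an adjusted p = 0.999 by limma. It was -0.59 (SE 0.86) for EtOH-UA against EtOH mice, with an exact permutation p = 0.584, and 1.22 (SE 0.81) for EtOH-UA against Ctrl mice, with an exact permutation p = 0.192.

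Over all mice, the level of Cox8b went with Ttr, the only choroid plexus marker it was set beside. Of the 9 mice with under 100 FPKM of Ttr, 5 had Cox8b at 0 and 1 reached 1 FPKM. Of the 14 mice with 100 FPKM of Ttr or more, 1 had Cox8b at 0 and 8 reached 1 FPKM. The groups differed in these numbers, since 4 of 9 Ctrl, 6 of 7 EtOH and 4 of 7 EtOH-UA mice had 100 FPKM of Ttr or more. Under 100 FPKM of Ttr and at 100 FPKM or more, the medians of Cox8b were 0 and 0.44 FPKM in Ctrl mice. They were 0 and 1.585 FPKM in EtOH-UA mice. In the EtOH group the 1 mouse under 100 FPKM of Ttr had 1.43 FPKM and the other 6 had a median of 1.14 FPKM. The highest Cox8b value, 4.21 FPKM, was in the EtOH-UA mouse with the highest Ttr, 7705 FPKM. In the 14 mice alone, the log2 fold change of Cox8b was 0.54 for EtOH against Ctrl mice (limma, unadjusted p = 0.523). Over all alternatives its unadjusted p was under 0.05 in 23 of 33. Those that leave out only EtOH-UA mice do not change its log2 fold change in this comparison. The part of choroid plexus tissue in the level of Cox8b was not tested. Of 6 muscle markers, Ckm, Myh2 and Tnnt3 were at 0.37 FPKM or less in every mouse. Over all mice, Acta1 ranged from 2.11 to 4.38 FPKM, Myh7 from 0.96 to 3.91 FPKM and Mylpf from 0.16 to 1.1 FPKM. The summed level of the 6 had medians of 5.28, 5.93 and 5.61 FPKM in Ctrl, EtOH and EtOH-UA mice.

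Cox6a2, another isoform of heart and skeletal muscle, had values of 2.63, 5.81 and 7.13 FPKM in Ctrl mice, 2.61, 4.01 and 4.94 in EtOH mice and 2.55, 4.05 and 4.80 in EtOH-UA mice. The Ctrl mice were spread widely, and their lowest values lay within the ethanol-fed groups. The log2 fold change against Ctrl mice was -0.40 (SE 0.20, exact permutation p = 0.109) in EtOH mice and -0.34 (SE 0.20, exact permutation p = 0.148) in EtOH-UA mice. None of the 14 ethanol-fed mice was above the Ctrl median. The Ctrl values differed with Ttr: the median of Cox6a2 was 6.98 FPKM in the 5 Ctrl mice under 100 FPKM of Ttr and 3.92 FPKM in the other 4, beside 3.57 FPKM in the 6 EtOH and 4.195 FPKM in the 4 EtOH-UA mice with as much Ttr. In the 14 mice with 100 FPKM of Ttr or more, the log2 fold change against Ctrl mice was -0.12 in EtOH mice and -0.06 in EtOH-UA mice (unadjusted p = 0.637 and 0.84 in the limma model, not a permutation test). The 3 Ctrl mice with summed FPKM above 350000 were the 3 highest for Cox6a2. The summed FPKM of 6 inhibitory interneuron markers had medians of 391.8, 378.0 and 339.7 in Ctrl, EtOH and EtOH-UA mice. Among them, the medians of Pvalb, Sst and Slc32a1 were highest in Ctrl mice, whereas those of Gad1, Gad2 and Vip were highest in an ethanol-fed group. The part of these cells in the level of Cox6a2 was not tested.

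The remaining 3 isoforms did not separate the groups. Cox7a1, the muscle form of subunit 7a, had medians of 1.23, 1.69 and 1.60 FPKM in Ctrl, EtOH and EtOH-UA mice, and its highest value, 5.63 FPKM, was in the EtOH-UA mouse whose summed FPKM was 404609. The log2 fold change of Cox7a1 was 0.20 (SE 0.33) for EtOH against Ctrl mice and -0.11 (SE 0.35) for EtOH-UA against EtOH mice. Cox6b2, a testis form of subunit 6b, had medians of 2.65, 1.91 and 1.97 FPKM. Over the 23 mice its median was 1.63 FPKM where Ttr was under 100 FPKM and 2.75 FPKM where it was 100 FPKM or more. The same split gave 1.3 and 3.21 FPKM in Ctrl mice and 1.63 and 3.21 FPKM in EtOH-UA mice. EtOH mice went the other way, with 2.31 FPKM in 1 mouse and a median of 1.9 FPKM in 6. Cox7b2, also known from testis, had medians of 0.33, 0.23 and 0.34 FPKM and never exceeded 0.76 FPKM. Its log2 fold change was 0.18 (SE 0.37) and -0.02 (SE 0.39) in the same comparisons.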

How the data were processed

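Hippocampal RNA of 23 mice was sequenced. According to the methods, poly(A)+ RNA was sequenced, reads were cleaned with SOAPnuke and aligned to mm10 with Bowtie2, and RSEM gave the expression values. The labels name total RNA, and the submitters' processing notes also list HISAT2 2.1.0, Bowtie2 2.2.5, RSEM 1.2.8, StringTie and DESeq. The authors deposited FPKM per gene and mouse to 2 decimals, so depth is unknown and no counting interval could be given. Columns were placed in groups by their names. No mouse was left out, and p-values measure the spread between mice.

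The 15986 genes averaging 0.1 FPKM or more over all mice were fitted as log2(FPKM + 0.1) with limma 3.58.1 in R 4.3.3, as 1 model of 3 groups with eBayes and a trend, and the Benjamini-Hochberg adjustment ran over all of them, at a threshold of 0.05. Fold changes of low genes are understated on this scale. Members were also compared by exact two-sided permutation tests (11440 splits for comparisons with Ctrl mice, 3432 for EtOH-UA against EtOH mice). The fit was tested on simulated data. Transcript lengths were medians over GENCODE M21 protein-coding transcripts with a RefSeq match, and promoter windows came from RefSeq. The members and lists were chosen with earlier results of these data known. Named members were those highest and lowest in each complex, all of complex II, isoform families, the 3 smallest p-values per direction and comparison, and members with a mouse standing apart. Others were named for their role in a complex, after their values were seen. Python 3.11.15 with numpy 2.4.6, pandas 2.3.3 and scipy 1.17.1 was used. Alternatives changed the pseudocount (0.01 or 1), the filter (none or a mean of 1 FPKM), the scaling, the groups in the fit, the length slope or the mice included, and 3 sets of mice (2 by summed FPKM, 1 by Ttr) were chosen after seeing the data.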

Additional observations from a re-analysis of the deposited data

Results flagged for a closer look

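In 9 of the 141 sets of values (47 members in 3 groups), the highest mouse stood apart from its group by Dixon's criterion at the 95% level, which flags about 1 in 20 groups by chance (7.05 of 141). All 9 were values of 1 mouse, the EtOH mouse of highest summed FPKM (366930). The members share their libraries and vary together, so the 141 sets are not independent. The 9 therefore cannot be judged against the 7.05. The gap to the next mouse, as a share of the range on the log2 scale, was 0.693 for Sdhc (62.3 FPKM against 50.9 in the next mouse), 0.658 for Cyc1 (89.2 against 69.4), 0.582 for Cox4i1 (652.4 against 516.5), 0.602 for Cox8a (486.8 against 377.6) and 0.652 for Cox7c (306.9 against 253.0). It was 0.691 for Cox7b (132.2 against 108.5), 0.592 for Atp5l (267.8 against 219.3), 0.586 for Atp5o (229.1 against 178.6) and 0.591 for Atp5mpl (136.1 against 102.8). Without the EtOH mouse of highest summed FPKM (366930), the members at an unadjusted p under 0.05 were 4 of 47 for EtOH against Ctrl mice, all lower (8.51%, against 2.49% of all genes lower in that fit), and 7 of 47 for EtOH-UA against EtOH mice, all higher (14.9%, against 4.02% of all genes higher), and none passed the adjusted test.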

How the results depend on the processing

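No paired analysis was possible because the columns carry mouse numbers rather than the replicate numbers of the labels. The paper reports random assignment of mice to the groups and names no matched mice. Nothing shows that equal replicate numbers in the labels mark mice that belong together. The members at an unadjusted p under 0.05 for EtOH against Ctrl mice were 1 with a pseudocount of 0.01, 1 with a filter at a mean of 1 FPKM, 4 with quantile normalization, 7 with the length slope as a covariate, 6 without the 2 EtOH-UA mice of highest summed FPKM and 4 without the 6 mice above 350000. For EtOH-UA against EtOH mice they were 2 with quantile normalization and 3 with the length slope, and for EtOH-UA against Ctrl mice 1, 5, 6 and 3 with quantile normalization, the length slope and the 2 sets of mice left out. The share of all genes tested at that level in these fits was, in the same order, 2.99%, 1.92%, 3.47%, 3.93%, 4.52% and 3.76%, then 3.52% and 3.06%, then 3.49%, 5.5%, 6.14% and 3.0%. In the same fits none of the members passed the adjusted test, and the genes passing it were 1 with the length slope for EtOH against Ctrl mice. The members higher in EtOH than in Ctrl mice were 1 with the stricter filter, 5 with quantile normalization, 10 with the length slope and 7 without the 6 mice. With UA, those higher than in the EtOH group were 22 with the length slope, 8 without the 2 mice and 27 without the 6, and those higher than in the Ctrl group were 8, 2 and 9. The median of the members reversed for EtOH-UA against EtOH mice to -0.0034 with the length slope and -0.037 without the 2 mice, and for EtOH-UA against Ctrl mice to -0.035, -0.15 and -0.035 with the length slope, without the 2 mice and without the 6. The cause of these changes was not tested.

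With each mouse left out in turn, the genes passing the adjusted test were 0 to 1 in each comparison. The members at an unadjusted p under 0.05 were 1 to 4, 1 to 7 and 0 to 1 for EtOH against Ctrl, EtOH-UA against EtOH and EtOH-UA against Ctrl mice. For EtOH-UA against Ctrl mice, the median ran from -0.041 to 0.076 and the members higher from 3 to 43. Without the EtOH-UA mouse at 404609 the values were -0.041 and 3, and without the one at 379518 they were -0.024 and 12.

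Among named members, Sdha reversed for EtOH-UA against EtOH mice with quantile normalization (-0.020), the length slope (-0.014), without the 2 mice (-0.032) and without the 6 (-0.00038). Atp5b reversed in the same fits (-0.0013, -0.030, -0.052 and -0.0028), and Cox4i1 with the length slope (-0.014) and without the 2 mice (-0.063). For EtOH against Ctrl mice Cox4i1 reversed with the length slope (0.0088). Against Ctrl mice, Atp5e reversed without the 2 mice (-0.14), and Uqcrb without the 2 (-0.11) and the 6 (-0.015). Cox7b2 in EtOH-UA against EtOH mice reversed with a pseudocount of 1 (0.0071) and with quantile normalization (0.029), and Cox8b reversed in the 14 mice with 100 FPKM of Ttr or more (1.02). With single mice left out, the values ran from -0.046 to 0.34 for Cox7b2 in EtOH against Ctrl mice, from -0.20 to 0.14 for Cox7b2 and from -0.42 to 0.11 for Cox7a1 in EtOH-UA against EtOH mice, and from -0.0082 to 0.20 for Atp5e and from -0.016 to 0.14 for Uqcrb in EtOH-UA against Ctrl mice. The deposited FPKM give no counts, which limits what can be said of genes as low as Cox8b and Cox7b2.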

Other observations

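Without the 2 EtOH-UA mice of highest summed FPKM, 6 members had an unadjusted p under 0.05 for EtOH-UA against Ctrl mice, all lower: Atp5d, Atp5g1, Cox6b1, Cox7b, Cox7c and Cox8a (limma, smallest adjusted p among the members 0.734), that is 12.8% of 47 members against 3.18% of all genes lower in that fit. With the length slope as a covariate there were 5, all lower: Atp5d, Atp5g1, Cox6a2, Cox7c and Cox8a (smallest adjusted p 0.882), that is 10.6% of 47 against 2.9% of all genes lower. Cox7b, Cox6b1 and Uqcrh were lower with ethanol than without it at an unadjusted p under 0.05 (limma) with the length slope, without the 2 mice and without the 6 mice above 350000. In these fits 6, 5 and 4 of 47 members were lower at that level, against 1.76%, 1.9% and 1.74% of all genes. Leaving out the 2 EtOH-UA mice changes no EtOH or Ctrl value, so that fit differs from the main one only in the shared estimate of spread. It is no separate test of the ethanol difference, and these genes were named for these p-values. These sets of mice were chosen after seeing the data.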
